A study of Rattus norvegicus with 34 samples.

Results

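The glutathione S-transferases (GSTs), UDP-glucuronosyltransferases (UGTs) and sulfotransferases (SULTs) were described in rat liver, rat kidney and NRK-52E cells whose labels give an exposure to the phenylurea herbicide monuron. Members were chosen by gene symbol alone: cytosolic GST symbols of the classes alpha, kappa, mu, omega, pi, theta and zeta, microsomal GST (Mgst) symbols, and the symbols that begin with Ugt1, Ugt2, Ugt3, Ugt8 or Sult and a digit. The rule found 46 genes among the 14217 that the array annotation names with 1 symbol. They comprised 20 cytosolic GSTs, 3 microsomal GSTs, 9 UGTs and 14 SULTs. Another 4 probe sets carry several symbols: 3 of them name only genes of these families and are described as family probe sets, and 1 also names a gene outside them and was not used.

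RNA was measured on 34 Affymetrix arrays, 1 per sample. The tissue came from male rats of a Wistar-derived stock, aged 7 to 9 weeks and weighing 190 to 240 g. Rats labelled monuron received 40 mg/kg as the first dose and 400 mg/kg as each of the next 2 daily doses, in corn oil at 5 ml/kg, and control rats received the corn oil. Each organ had 4 monuron and 4 control arrays. The design text speaks of 8 rats, and the labels do not tie a kidney array to a liver array. The labels give 72 h for the tissue, whereas the protocol places death 72 h after the last dose, so the differences may belong to exposure or to the days after it. NRK-52E is an established epithelial line from rat kidney, labelled with the Osborne-Mendel genotype and the proximal tubule. Its cells were exposed for 6, 24 or 72 h to monuron or to 0.1% DMSO, which both arms received, with 3 biological replicates of each. For the cells the protocol names chlorothalonil and not monuron, so which compound they received is uncertain and no concentration is given, and "monuron" below repeats the label. Where the labels do not say that replicates were separate cultures, p-values measure only the spread between these samples.

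The 3 families add a polar group to reactive or fat-soluble compounds so that these can be exported into bile or urine. GSTs join glutathione to electrophiles, UGTs join glucuronic acid from UDP-glucuronate to hydroxyl, amine and carboxyl groups, and SULTs transfer sulfate from PAPS to phenols, alcohols and steroids. Hepatocytes carry most of this capacity. The proximal tubule of the kidney conjugates as well, and it completes the breakdown of glutathione conjugates to mercapturates. Many of the genes respond to foreign compounds through NRF2 at antioxidant response elements, through the aryl hydrocarbon receptor (AhR) at xenobiotic response elements, or through the nuclear receptors CAR and PXR.

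All values are log2 expression values that the authors obtained with GCRMA. Levels were compared only within a sample type and never between genes, apart from counts of members above each array's own median. Pearson correlations between arrays of a group lay between 0.987 and 0.999 in the cells, 0.993 and 0.996 in kidney and 0.992 and 0.996 in liver. The liver arrays held 6 of 6 hepatocyte markers above the array median and the kidney arrays 7 of 7 proximal tubule markers. In NRK-52E cells none of those 7 tubule markers (Lrp2, Cubn, Slc34a1, Slc22a6, Slc5a2, Aqp1 and Kap) lay above the median on every array of any group, 1 of 4 epithelial markers did, and 4 or 5 of 7 fibroblast markers did. The cells are therefore named here by the label of the line. In whole tissue and in wells, fewer cells of a type and less RNA per cell cannot be told apart.

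The promoters of 4 members are shown because the results turn on them: Gsta3, which was lowest relative to control in liver, Ugt2b7, which was lowest relative to control in kidney, Gstp1, which was lower in both organs, and Gsta1, which was higher in the cells. Each window holds 250 bases before and 50 after the gene's start in RefSeq (GRCr8), which matched 40 of the 46 members. It is written along the gene's strand: Gsta3 at chr9:31166793-31167092 (+), Ugt2b7 at chr14:21251285-21251584 (+), Gstp1 at chr1:210769656-210769955 (-) and Gsta1 at chr9:31216483-31216782 (-). Capitals mark the core of the antioxidant response element (TGACNNNGC) and the core of the xenobiotic response element (GCGTG), each searched on both strands, so GCGTG on the opposite strand reads CACGC.
Gsta3: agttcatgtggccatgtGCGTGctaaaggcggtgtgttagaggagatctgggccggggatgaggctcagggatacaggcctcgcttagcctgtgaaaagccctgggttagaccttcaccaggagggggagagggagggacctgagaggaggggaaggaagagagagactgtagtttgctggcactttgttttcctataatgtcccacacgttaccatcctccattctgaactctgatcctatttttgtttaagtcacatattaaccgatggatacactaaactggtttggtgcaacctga
Ugt2b7: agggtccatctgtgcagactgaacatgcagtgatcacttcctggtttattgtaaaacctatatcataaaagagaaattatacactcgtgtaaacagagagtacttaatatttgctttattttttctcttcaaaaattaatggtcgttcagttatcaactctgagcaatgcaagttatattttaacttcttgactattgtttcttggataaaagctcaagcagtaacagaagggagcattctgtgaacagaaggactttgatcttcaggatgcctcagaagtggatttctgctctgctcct
Gstp1: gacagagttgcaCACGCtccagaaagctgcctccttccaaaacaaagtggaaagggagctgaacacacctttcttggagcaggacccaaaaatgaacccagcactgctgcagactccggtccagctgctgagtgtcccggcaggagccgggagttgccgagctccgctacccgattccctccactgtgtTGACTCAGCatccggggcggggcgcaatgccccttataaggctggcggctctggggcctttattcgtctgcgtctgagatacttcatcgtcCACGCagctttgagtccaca
Gsta1: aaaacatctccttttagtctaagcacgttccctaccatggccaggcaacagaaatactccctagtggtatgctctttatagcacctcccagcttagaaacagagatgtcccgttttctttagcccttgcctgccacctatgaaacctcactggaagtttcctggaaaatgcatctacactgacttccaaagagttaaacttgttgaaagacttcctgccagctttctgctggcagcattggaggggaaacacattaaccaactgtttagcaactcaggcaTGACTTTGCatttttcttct
The Gsta3 window held 1 match to GCGTG and the Ugt2b7 window held no match to either motif. The Gstp1 window held 1 match to TGACNNNGC before the start and 2 to GCGTG on the opposite strand, which do not overlap it. The Gsta1 window held 1 match to TGACNNNGC after the start. TGACNNNGC was found in 5 of 40 member windows (12.5%; Gsta1, Gstm5, Gstm7, Gstp1 and Gstz1) and in 12.1% of all 33469 windows. GCGTG was found in 10 of 40 (25%) and in 29.7% of all windows, and in the Gstm5 window a match to it on the opposite strand lies inside a match to TGACNNNGC. These are matches of letters, not tested sites.

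Most of the members sit beside others of their family. Of the 45 placed in the RefSeq table, 33 lay in 8 groups with at most 5 other protein-coding genes between neighbours. Among the placed members, the largest group held 8 UGT genes and the sulfotransferases Sult1d1 and Sult1b1. The next held the 7 mu class genes, and the 3 theta class genes formed another. Sult1e1 is not counted in the largest group, although its promoter window (chr14:20701230-20701529) lies near that of Sult1d1 (chr14:20720829-20721128). Neighbouring copies resemble one another in sequence, and signal shared between their probe sets was not tested.

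Set against each array's own median, more members were read in liver than in kidney or the cells. That median was 3.66 to 3.78 in liver, 3.89 to 3.94 in kidney and 3.96 to 4.18 in the cells. Of the 46 members, 36 lay above the array median on all 8 liver arrays, 26 on all 8 kidney arrays and 11 on all 18 cell arrays, and 6, 14 and 30 lay above it on none. All 9 named UGT genes lay below the median on every cell array, whereas 7 of 9 lay above it on every liver array and 3 on every kidney array. The SULT1 class was above the median on every array for 6 of 7 genes in liver, 4 in kidney and none in the cells. A member was tested if it exceeded the array median on 4 or more tissue arrays or 3 or more cell arrays, which left 39 members in liver, 28 in kidney and 16 in the cells. Some of these passed mainly through 1 group, so the counts below cover the tested members and not the families: Gstm3 and Ugt2b7 in liver, Ugt2b15 and Sult1c3 in kidney, and Gstt1 and Sult1c2 in the cells.

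In liver, 9 of 39 tested members fell with monuron and none rose, against 2.02% of 9361 genes lower and 1.10% higher. Of the 9, 8 were GSTs (Gsta3, Gsta4, Gstm1, Gstp1, Gstt1, Gstt2, Gstt3 and Gsto1) and the other was Ugt2b1. The median difference of the 21 tested GSTs and microsomal GSTs was -0.44 against -0.07 over all genes tested, and it was 0.04 for 8 UGTs and -0.02 for 10 SULTs. At an unadjusted p below 0.05 limma counted 14 members lower and 2 higher, against 16.8% of all genes lower and 7.15% higher. The calls of Gsta3, Gsta4, Gstm1, Gstt1, Gstt3 and Ugt2b1 held in all 6 alternatives and all 8 omissions of an array, whereas those of Gsto1, Gstt2 and Gstp1 were lost in 4, 5 and 5 of the omissions. The probe sets at the 3′ and 5′ ends of actin, whose difference grows as RNA shortens, differed by 3.10 to 3.89 on the monuron arrays and by 3.40 to 4.77 on the control arrays, and the part of this in the result was not tested. The hepatocyte markers had a mean level of 14.89 to 15.07 with monuron and 14.73 to 15.10 in controls, and none of the 6 passed. The water channel gene Aqp1 of the tubule list passed, higher (means 5.80 and 3.69), and its part was not tested.

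In kidney, 7 of 28 tested members fell (Ugt2b7, Ugt2b15, Gsta3, Gstm7, Gstp1, Gstt2 and Gstt3) and 1 rose (Sult1c2), against 6.34% of 9542 genes lower and 3.87% higher. The median difference of the 17 tested GSTs and microsomal GSTs was -0.27, of the 4 UGTs -1.15 and of the 7 SULTs 0.02, against -0.08 over all genes tested. Without monuron kidney array 4, which stood nearest to the controls for several members, 13 members passed, including the 8. Leaving out any 1 of the other 7 kidney arrays left 2 to 5, and the calls of Ugt2b7 and Gsta3 alone held in all 8 omissions and all 6 other alternatives. Counts over all genes in these fits are not given here, so a move may not be particular to the members. Marker genes of cell types moved too: the mean level of the 7 proximal tubule markers was 13.85 to 13.96 with monuron and 13.55 to 13.64 in controls (Lrp2 and Cubn passed the test, higher), the mean of the 4 epithelial markers was 10.71 to 11.20 against 11.14 to 11.86 (Krt8 passed, lower), and Ptprc of leukocytes and Vwf of endothelium passed, higher. Their part in the kidney differences was not tested.

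In the cells the numbers grew with time. At 6 h 1 of 16 tested members fell and none rose, against 3.02% of 9042 genes lower and 3.30% higher. At 24 h 3 rose and none fell, against 6.43% higher and 7.14% lower. At 72 h 4 rose and 6 fell, against 30.7% higher and 30.9% lower, so the share called among the members (62.5%) was close to that of all genes (61.6%).

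**Figure D1:**
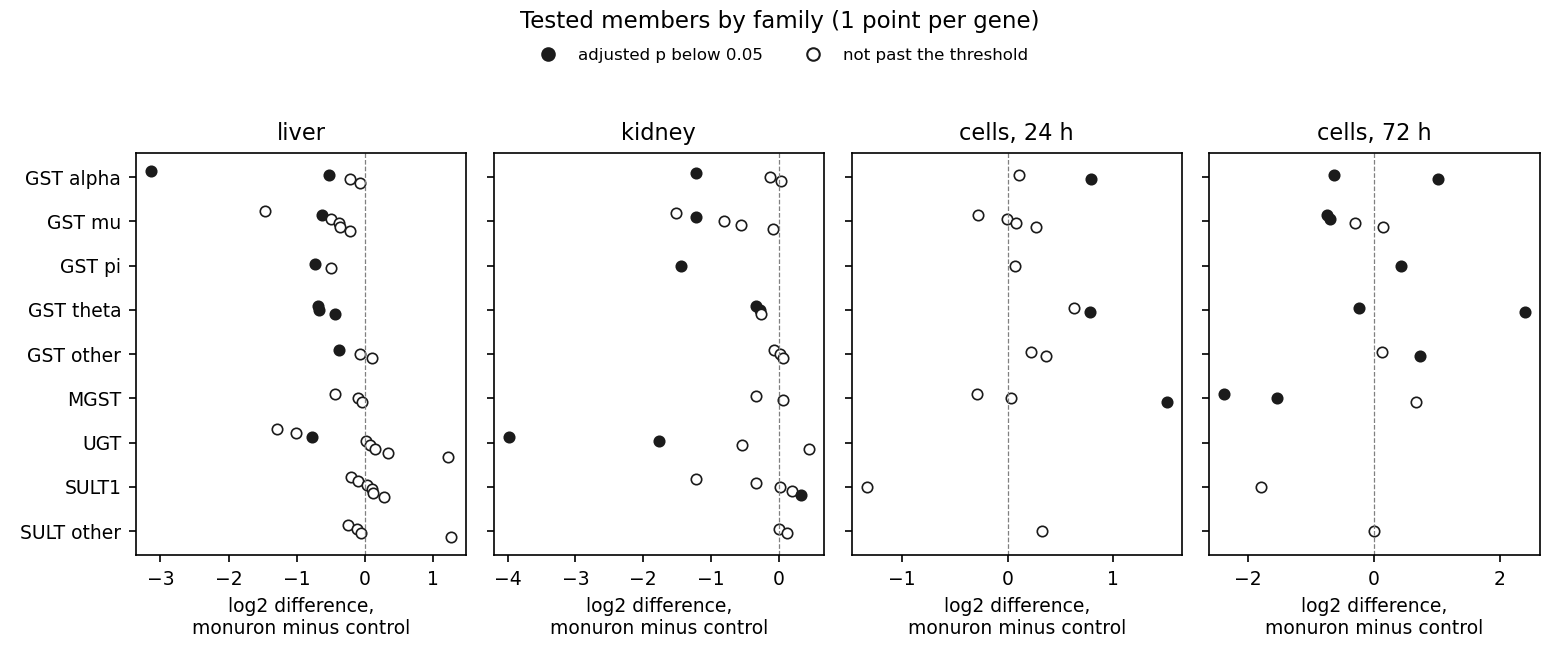
Log2 difference (monuron minus control, horizontal axis) of every tested member, 1 point per gene, by family in liver, kidney and the cells at 24 and 72 h; filled points have an adjusted p below 0.05 (limma). In liver 20 of 21 GST and microsomal GST points lie below zero, whereas UGT and SULT points lie on both sides. The median over all genes tested is -0.07 in liver. In kidney the lowest points are the UGTs Ugt2b7 and Ugt2b15.

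The alpha class GSTs are abundant liver enzymes that conjugate electrophiles and reduce lipid hydroperoxides. Gsta3 in liver read 7.53, 7.61, 6.98 and 7.30 with monuron and 10.24, 9.81, 10.96 and 10.97 in controls. The highest monuron array lay more than 2 log2 units below the lowest control array. Gsta3 fell by 3.14 (SE 0.27, n = 4 against 4, 8.82-fold, adjusted p = 0.0016), the largest difference among the members tested in liver. Gsta4, which conjugates the lipid peroxidation product 4-hydroxynonenal, read 12.99 to 13.14 with monuron and 13.52 to 13.74 in controls, with no overlap. It fell by 0.53 (SE 0.06, adjusted p = 0.0087). Gsta1 read 14.84 to 15.01 against 15.08 to 15.22 and missed the threshold (-0.22, SE 0.06, adjusted p = 0.0643). The family probe set for Gsta2 and Gsta5 read 14.86 to 15.08 with monuron and had a difference of -0.50 (adjusted p = 0.0260), which passed in 6 of 14 alternatives.

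In kidney Gsta3 read 8.04, 7.72, 7.43 and 8.34 with monuron and 9.00, 8.92, 9.36 and 9.15 in controls. All 4 monuron arrays lay below all controls, and Gsta3 fell by 1.22 (SE 0.19, 2.34-fold, adjusted p = 0.0059). The other alpha members barely differed there. Gsta1 had a difference of 0.04 (SE 0.06), Gsta4 one of -0.12 (SE 0.12) and the Gsta2 and Gsta5 probe set one of -0.03 (SE 0.09), and each missed the threshold.

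The mu class GSTs act on epoxides and quinones. Gstm1 in liver read 14.51, 14.51, 14.76 and 14.49 with monuron and 15.27, 15.22, 15.26 and 15.05 in controls. The groups did not overlap, and it fell by 0.63 (SE 0.08, 1.55-fold, adjusted p = 0.0087). Differences of the other 5 tested mu members in liver were all below zero, from -1.46 for Gstm3 to -0.22 for Gstm5, and none passed. Gstm2 came nearest (-0.39, SE 0.09, adjusted p = 0.0510). The median over all genes tested in liver was itself below zero (-0.07), and the share of genes below zero was not counted.

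In kidney all 5 tested mu members also had differences below zero, where the median over all genes tested was -0.08. Only 1 of them, Gstm7, passed. Gstm7 read 4.98, 4.49, 4.36 and 5.49 with monuron and 5.58, 5.74, 6.74 and 6.11 in controls. Its highest monuron array lay just below its lowest control, and it fell by 1.21 (SE 0.31, adjusted p = 0.0362). Gstm1 read 7.65, 7.42, 6.17 and 7.49 against 8.14, 7.85, 9.30 and 9.49. Its groups did not overlap, yet the controls spread over more than 1.5 log2 units, and the difference of -1.51 (SE 0.43) missed the threshold (adjusted p = 0.0534). Gstm5 missed it too (-0.81, SE 0.23, adjusted p = 0.0549).

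Gstp1 is the pi class enzyme of duct and tubule epithelium, and its induction in liver marks altered hepatocyte foci. In liver it read 8.94, 8.83, 8.82 and 8.71 with monuron and 9.73, 9.22, 9.79 and 9.50 in controls. The groups were apart, and it fell by 0.73 (SE 0.13, 1.66-fold, adjusted p = 0.0286). In kidney the monuron arrays read 12.78, 12.77, 12.71 and 14.64 and the controls 14.42, 14.74, 14.93 and 14.60. The first 3 monuron arrays lay more than 1.5 log2 units below every control and monuron array 4 lay among the controls. The mean difference of -1.44 (SE 0.39, adjusted p = 0.0445) became -1.92 without that array, and the adjusted p missed the threshold on leaving out any other array, at up to 0.1235. Gstp3 was tested in liver alone and missed the threshold (-0.50, SE 0.25), with monuron array 4 at 14.23 and the other 3 at 13.07 to 13.14. Without that array it was -0.78 and passed (adjusted p = 0.0295).

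The theta class GSTs act on small halogenated molecules. Gstt3 in liver read 13.87, 13.91, 13.88 and 13.89 with monuron and 14.75, 14.59, 14.50 and 14.43 in controls. The monuron arrays were nearly equal and all lay below the controls, and it fell by 0.68 (SE 0.07, adjusted p = 0.0061). Gstt1 read 9.88 to 10.07 against 10.62 to 10.84 and fell by 0.70 (SE 0.08, adjusted p = 0.0087). Gstt2 read 10.85 to 10.90 against 11.17 to 11.45 and fell by 0.44 (SE 0.07, adjusted p = 0.0240). All 3 theta genes thus passed as lower in liver, where 2.02% of all genes did so. The second, dimmer probe set of Gstt2 did not follow, and with the mean of both the Gstt2 difference was -0.18 and missed the threshold in liver.

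In kidney Gstt2 read 10.14 to 10.44 against 10.56 to 10.76 and fell by 0.33 (SE 0.08, adjusted p = 0.0331). Gstt3 read 14.72 to 15.05 against 15.11 to 15.20 and fell by 0.27 (SE 0.07, adjusted p = 0.0460). Neither gene's groups overlapped, and both differences were small. The calls of Gstt2 and Gstt3 were lost in 6 and 7 of 8 omissions of an array. The Gstt2 difference was -0.12 with the mean of both probe sets and missed the threshold. Gstt1 had 10.17 to 10.56 against 10.59 to 10.63, also without overlap, and missed the threshold (-0.26, SE 0.08, adjusted p = 0.0783).

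The omega enzyme Gsto1 reduces dehydroascorbate and methylated arsenicals. In liver it read 12.44, 12.45, 12.47 and 12.30 with monuron and 12.80, 12.76, 12.81 and 12.81 in controls. The groups were apart, and it fell by 0.38 (SE 0.06, adjusted p = 0.0177). In kidney its groups overlapped (0.07, SE 0.08). Gstz1 of tyrosine breakdown and the kappa enzyme Gstk1 missed the threshold in both organs, with differences between -0.08 and 0.10. Mgst1, Mgst2 and Mgst3 are membrane-bound enzymes of the endoplasmic reticulum and outer mitochondrial membrane. Mgst2 in liver read 12.36 to 12.85 against 13.07 to 13.20 and missed the threshold (-0.45, SE 0.10, adjusted p = 0.0544), and neither Mgst1 (-0.04, SE 0.04) nor Mgst3 (-0.11, SE 0.15) passed. In kidney Mgst1 read 13.34, 13.28, 13.39 and 13.89 against 13.73 to 13.87. Array 4 again lay with the controls, and the difference of -0.34 (adjusted p = 0.1001) became -0.48 (adjusted p = 0.0029) without it.

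**Figure D2:**
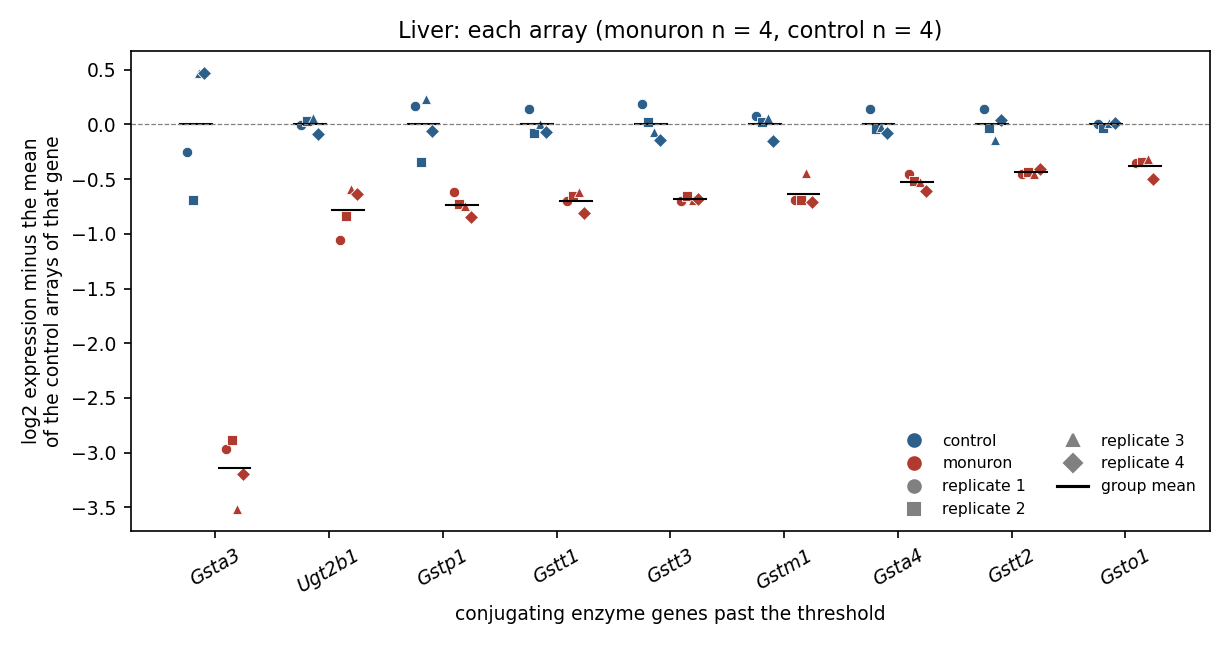
Log2 expression of the 9 members that fell in liver, each array as 1 point minus the mean of that gene's 4 control arrays; the marker shape gives the array number and the black line the group mean. All monuron points lie below all control points for each of the 9 genes, and the gap is widest for Gsta3, whose group means are 3.14 apart. These genes were picked by p in the same arrays, and overlap was not counted over all genes.

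UGT2B enzymes glucuronidate steroids, bile acids, fatty acids and many drugs. Ugt2b7 in kidney read 7.84, 7.87, 8.31 and 10.08 with monuron and 12.46, 12.27, 12.75 and 12.56 in controls. Every monuron array lay more than 2 log2 units below every control, with array 4 the highest. Ugt2b7 fell by 3.98 (SE 0.43, n = 4 against 4, 15.8-fold, adjusted p = 0.0012), the largest difference of any member in kidney, and by 4.50 without array 4. Ugt2b15 read 3.40, 2.98, 3.74 and 5.58 against 5.80, 5.50, 5.67 and 5.79. The first 3 monuron arrays lay below the array median and array 4 overlapped the controls, so the difference of -1.77 (SE 0.47, adjusted p = 0.0445) has a lower end set by the background. With values limited to the array median it was -1.36. Ugt2b35 (-0.54, SE 0.19, adjusted p = 0.0967) and Ugt8, the galactosyltransferase of myelin lipids (0.45, SE 0.21, adjusted p = 0.1787), missed the threshold.

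In liver a different UGT passed. Ugt2b1 read 13.02, 13.24, 13.49 and 13.44 with monuron and 14.07, 14.11, 14.13 and 13.99 in controls. The controls were nearly equal and lay above every monuron array, and Ugt2b1 fell by 0.78 (SE 0.10, 1.72-fold, adjusted p = 0.0088). The abundant liver genes around it differed little: Ugt2b had a difference of 0.07 (SE 0.07), Ugt2b35 one of 0.01 (SE 0.07) and Ugt2b10 one of 0.14 (SE 0.13). Ugt2b15 read 14.01 to 14.54 against 13.88 to 13.99, all monuron arrays above all controls, and missed the threshold (0.34, SE 0.10, adjusted p = 0.1006). Ugt2b7 lay near the array median in liver, at 3.27 to 3.94 against 3.85 to 5.40, and missed it as well (-1.02, SE 0.32, adjusted p = 0.1049).

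The UGT1 genes share their last exons, and the array reads them through 2 family probe sets that each name 8 Ugt1a genes. Neither passed in kidney (-0.26, SE 0.17 and 0.03, SE 0.19) or in liver (-0.23, SE 0.06, adjusted p = 0.0808 and 0.03, SE 0.17). In the cells both lay above the array median, unlike the 9 named UGT genes. At 72 h 1 of them read 12.06, 12.00 and 11.52 with monuron and 12.94, 12.80 and 11.81 with DMSO. DMSO array 3 fell among the monuron arrays, and the difference was -0.66 (SE 0.21, adjusted p = 0.0124), a call that held in 10 of 14 alternatives. The other differed by -0.68 (SE 0.33) and missed the threshold (adjusted p = 0.0814).

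**Figure D3:**
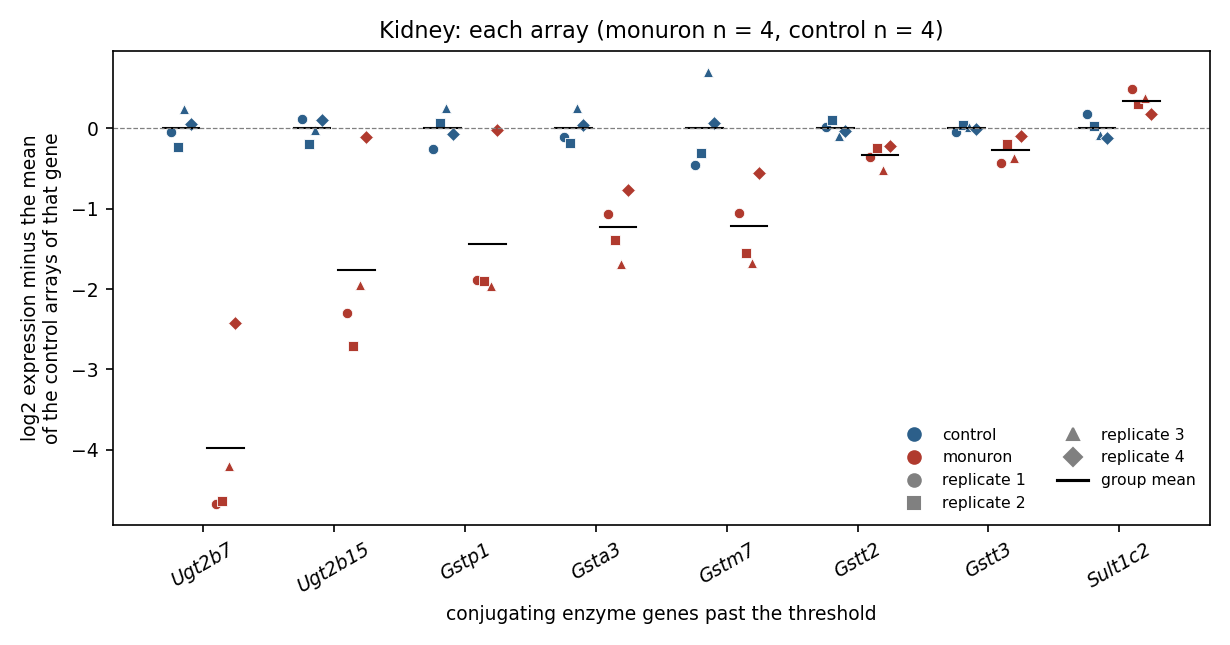
Log2 expression of the 8 members that passed the threshold in kidney, each array as 1 point minus the mean of that gene's 4 control arrays; the marker shape gives the array number and the black line the group mean. Monuron array 4 (diamond) lies near the controls for Gstp1 and Ugt2b15 and is the highest monuron point for Ugt2b7, and only Sult1c2 lies above its controls.

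SULT1 enzymes sulfate phenols, thyroid hormones and estrogens, and SULT2 enzymes sulfate hydroxysteroids and bile acids. In liver none of the 10 tested SULTs passed, and none had an unadjusted p below 0.05 in limma. Without monuron array 4 Sult1c2a passed, higher (0.48, adjusted p = 0.0351, against 0.28 with all arrays). Their differences ran from -0.25 for Sult2b1 to 1.26 for Sult2a2. The latter came from 1 array: Sult2a2 read 4.22, 5.28, 4.60 and 8.71 with monuron against 3.90 to 4.87 (SE 0.86). The abundant estrogen sulfotransferase Sult1e1 read 15.10 to 15.50 against 15.22 to 15.58 (-0.10, SE 0.11), and Sult1a1 overlapped likewise (0.03, SE 0.14).

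In kidney Sult1c2 read 13.89, 13.69, 13.77 and 13.58 with monuron and 13.57, 13.42, 13.31 and 13.28 in controls. The lowest monuron array lay just above the highest control, and it rose by 0.34 (SE 0.08, 1.26-fold, adjusted p = 0.0342). It was the only member that rose in either organ, and its call was lost in 6 of 8 omissions of an array. The adjacent Sult1c2a had a difference of 0.20 (SE 0.07, adjusted p = 0.1072). Sult1c3 read 3.22 to 4.41 against 4.50 to 6.04, near the array median, and missed the threshold (-1.22, SE 0.35, adjusted p = 0.0571).

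Of the 27 members tested in both organs, 4 fell in both: Gsta3, Gstp1, Gstt2 and Gstt3. The 4 are 14.8% of the 27, against 0.409% of the 8804 genes tested in both organs. Of the 4, only Gsta3 kept its call in both organs in all 8 omissions of an array. In kidney the calls of Gstt2, Gstp1 and Gstt3 were lost in 6, 7 and 7 of 8 omissions. The 4 are 44.4% of the 9 that fell in liver and 57.1% of the 7 that fell in kidney. Differences were below zero in both organs for 13 of the 27 (48.1%, against 46.4% of those genes) and of opposite sign for 12 (44.4%, against 34.3%). Whether the treatment difference itself differed was tested with an interaction term, which passed for 6 of 40 members against 2.68% of 10114 genes. Gsta3 fell more in liver (liver minus kidney -1.92, SE 0.35, adjusted p = 0.0070), and the differences of Gsto1 (-0.45, SE 0.09, adjusted p = 0.0173) and Gstt3 (-0.41, SE 0.10, adjusted p = 0.0455) were also lower in liver. The differences of Ugt2b7 (2.96, SE 0.58, adjusted p = 0.0115) and Ugt2b15 (2.11, SE 0.52, adjusted p = 0.0409) were lower in kidney. Ugt2b7 lay near the array median in control livers, where a fall as large as that in kidney could not have been seen. Ugt2b1 had an interaction of -0.85 (SE 0.15, adjusted p = 0.0054), but it read 2.11 to 2.32 on all 8 kidney arrays, below their medians, where no fall could be seen. Gstp1, with differences of -0.73 and -1.44, did not pass (0.71, SE 0.44, adjusted p = 0.4661), but without kidney monuron array 4 its interaction was 1.18 (adjusted p = 0.0018), lower in kidney. The calls of Ugt2b15 and Gstt3 were lost in 13 of 16 omissions of an array each, and that of Gsto1 was lost without the trend.

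**Figure D4:**
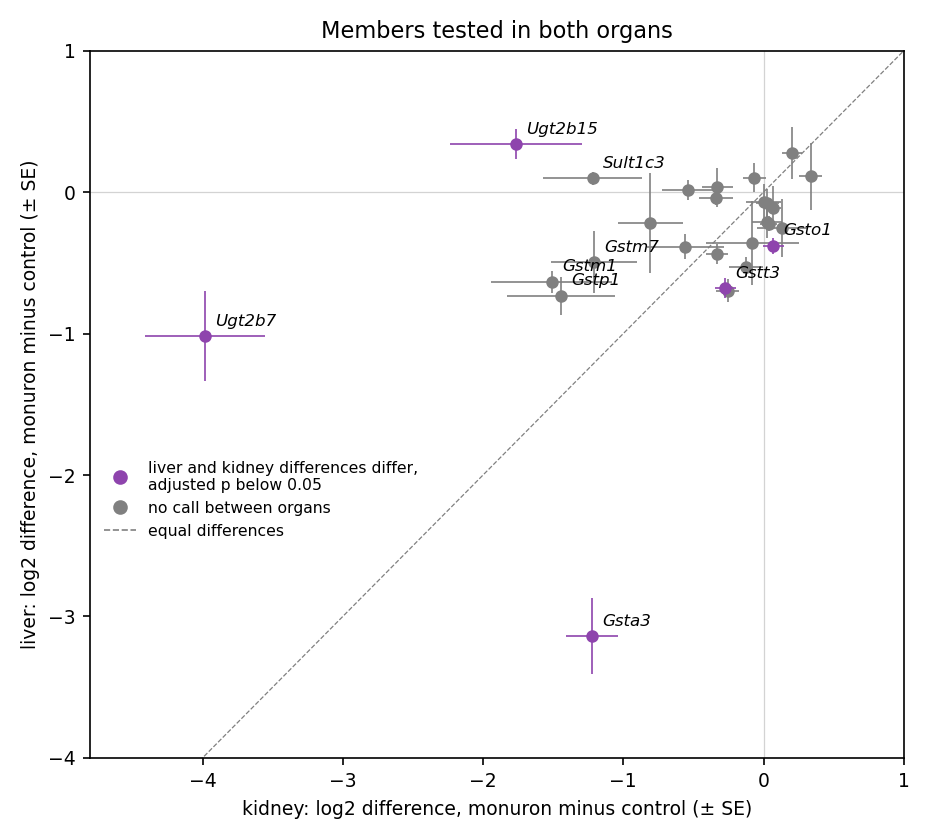
Log2 difference of the 27 members tested in both organs, kidney on the horizontal and liver on the vertical axis, with bars of 1 SE; purple points have a difference between organs with an adjusted p below 0.05 (limma), and the dashed line marks equal differences. Gsta3 lies below the line at -1.22 in kidney and -3.14 in liver, and Ugt2b7 lies left of it at -3.98 and -1.02.

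In NRK-52E cells 14 of the 16 tested members were GSTs or microsomal GSTs, with Sult1c2 and Sult5a1. At 6 h Mgst1 read 3.80, 3.40 and 3.41 with monuron and 5.48, 5.11 and 4.61 with DMSO. All 3 monuron arrays lay below the array median and below every DMSO array. Mgst1 fell by 1.53 (SE 0.38, n = 3 against 3, adjusted p = 0.0268), which is a difference against the background: limited to the array median it was -0.99 (adjusted p = 0.1221). The call was also lost without monuron array 2 or 3 or DMSO array 1 or 2 of that time. With the replicate number as a block, 4 members passed, which were Mgst1, Gsta4 (-0.43) and Gstm1 (-0.38) lower and Gstt2 (0.31) higher. The same number passed without the 72 h arrays, and counts over all genes in these fits are not given here.

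At 24 h a theta, an alpha and a microsomal GST rose. Gstt2 read 10.34, 10.46 and 10.53 with monuron and 9.62, 9.68 and 9.67 with DMSO. Both groups were tight and far apart, and it rose by 0.78 (SE 0.09, 1.72-fold, adjusted p = 1.78e-04). Its dimmer second probe set differed by 0.03, and with the mean of both the difference was 0.40 and still passed (adjusted p = 0.0092). Gsta1 read 9.56, 9.20 and 9.27 against 8.40, 8.76 and 8.48 and rose by 0.80 (SE 0.17, 1.74-fold, adjusted p = 0.0083). Mgst2 read 7.84, 7.97 and 7.78 against 5.59, 6.60 and 6.86. Its monuron arrays were close together and its DMSO arrays spread, and it rose by 1.51 (SE 0.40, adjusted p = 0.0204), a call lost without any 1 monuron array or DMSO array 1 of that time. Without the 72 h arrays 7 members passed: Gstm5 (0.27), Gsto1 (0.37) and Gstt1 (0.63) rose as well and Sult1c2 (-1.34) fell. Without DMSO array 3 of 72 h 6 members passed. Counts over all genes in these fits are not given here, so the gain may not be particular to the members.

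At 72 h the classes moved in both directions. Gstt1 read 5.53, 5.92 and 5.33 with monuron and 2.84, 3.07 and 3.70 with DMSO. All DMSO arrays lay below the array median, and it rose by 2.39 (SE 0.24, adjusted p = 8.94e-07), or by 1.46 with values limited to that median. Gsta1 read 10.92, 10.91 and 10.76 against 9.92, 9.62 and 10.00 and rose by 1.02 (SE 0.17, 2.03-fold, adjusted p = 1.10e-04). Gsto1 read 11.21, 11.31 and 11.33 against 10.24, 10.42 and 11.01 and rose by 0.72 (SE 0.15). Gstp1 read 13.34, 13.41 and 13.26 against 12.75, 13.11 and 12.88 and rose by 0.43 (SE 0.08). In none of these 4 genes did the arms overlap, a trait that was not counted over all genes.

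Of the tested members, 2 of 3 microsomal and 2 of 4 mu class GSTs fell at 72 h, together with Gsta4 and Gstt2. Mgst3 read 5.03, 4.55 and 3.64 with monuron and 6.97, 6.66 and 6.71 with DMSO. The groups were apart by more than 1.5 log2 units, and it fell by 2.37 (SE 0.27, 5.18-fold, adjusted p = 2.52e-06). Gstm2 read 11.15, 11.46 and 11.24 against 12.06, 12.08 and 11.93 and fell by 0.74 (SE 0.09, adjusted p = 3.21e-06). Gstm1 read 9.13, 9.26 and 9.01 against 9.63, 10.07 and 9.79 and fell by 0.70 (SE 0.13, adjusted p = 1.90e-04). Gsta4 read 11.22, 11.33 and 10.77 against 11.41, 12.18 and 11.61 and fell by 0.63 (SE 0.16, adjusted p = 0.0027). Those 4 genes were lower on every monuron array than on any DMSO array, which was not counted over all genes either. Mgst1 read 7.96, 7.84 and 6.78 against 9.87, 9.36 and 7.95. Both arrays with number 3 were the lowest of their group and 1 monuron array overlapped it, and Mgst1 fell by 1.53 (SE 0.38, adjusted p = 0.0025). Fitted with the 72 h arrays alone, Mgst1 (adjusted p = 0.0536) and Gsta4 (adjusted p = 0.0659) missed the threshold. Gstt2 overlapped (-0.25, SE 0.09, adjusted p = 0.0313), and its call was lost in 4 of 8 alternatives. Mgst2 read 7.07, 7.39 and 6.68 against 5.18, 6.95 and 6.98 and missed the threshold (0.67, SE 0.40), but without DMSO array 3 it was 0.98 (adjusted p = 0.0436). Sult1c2 read 3.17, 3.00 and 8.78 with DMSO, where array 3 stood apart, and 3.18 to 3.21 with monuron, and it missed the threshold (-1.79, SE 0.97). Markers of cell types moved at that time too, when 61.6% of all genes passed. Cd68, the 1 tested of 7 macrophage and leukocyte markers, was higher. The other 6 lay below the median on every monuron array of 72 h. Krt8 of the epithelial list was lower, and 2 of 5 fibroblast markers were higher and 2 lower. The part of these markers was not tested.

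**Figure D5:**
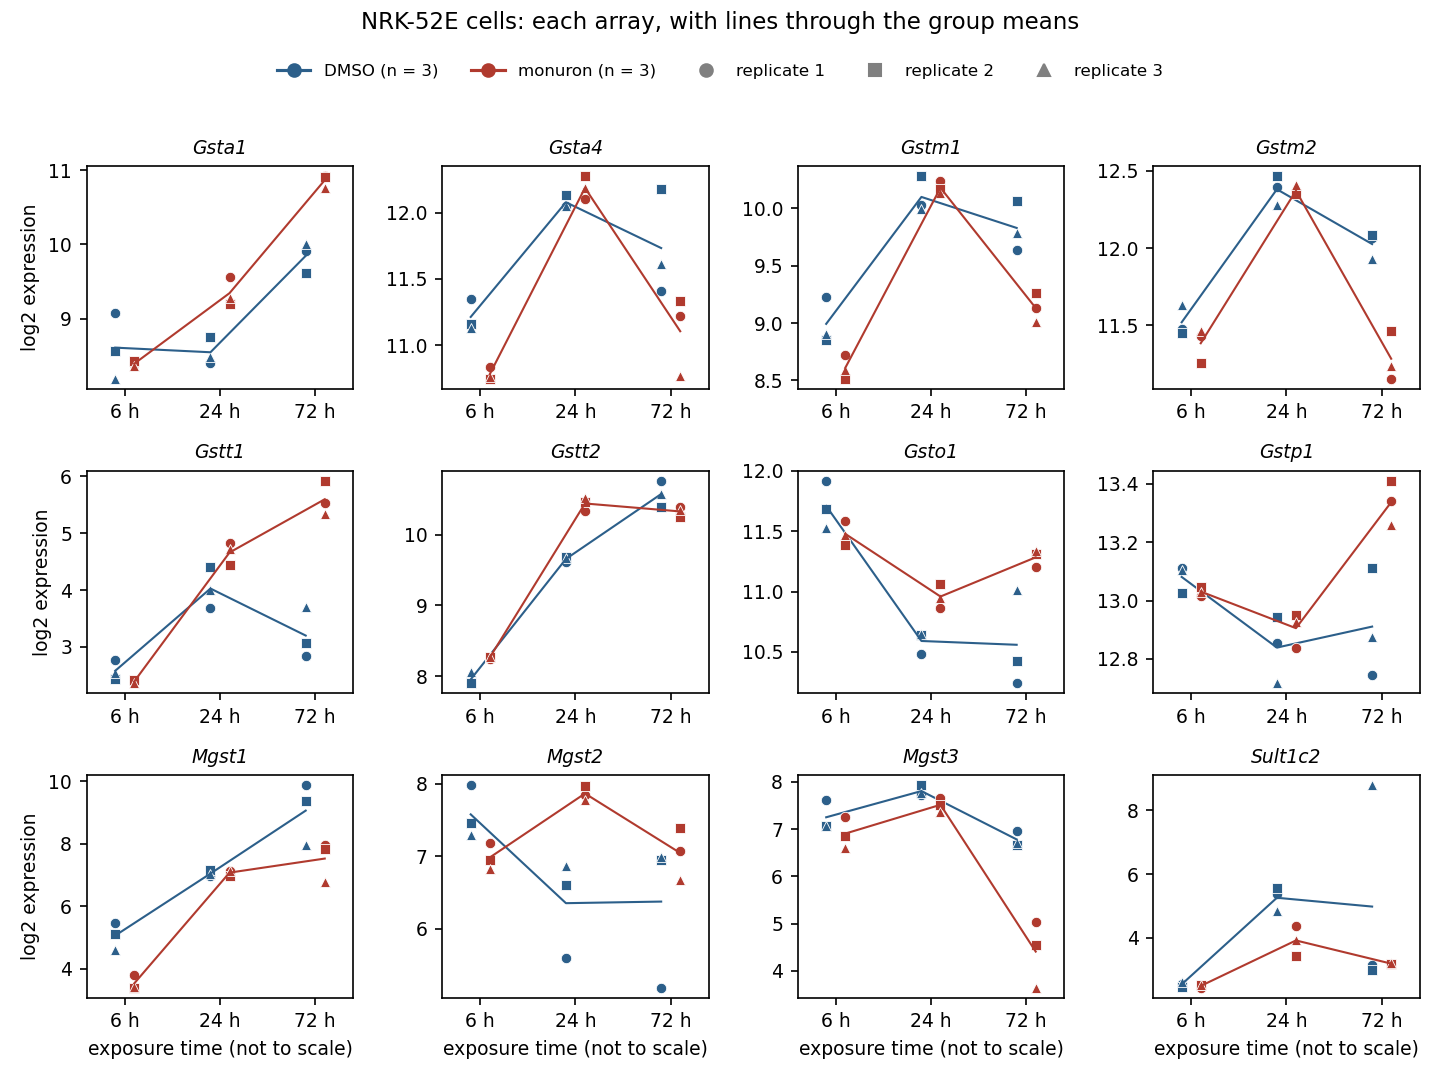
Log2 expression of 12 members in NRK-52E cells at 6, 24 and 72 h (horizontal axis, not to scale), each array as 1 point with the replicate number as the marker shape, and lines through the group means of DMSO and monuron (n = 3 each). Gsta1 and Gstt1 are higher with monuron at 72 h, Gstm1 and Gstm2 are lower at 72 h and near DMSO at 24 h, and 1 DMSO point of Sult1c2 at 72 h lies at 8.78.

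The change of the treatment difference over time was tested within the same fit. Between 6 and 24 h no member passed in limma, against 1.22% of all genes, although 8 of 16 had an unadjusted p below 0.05, all toward higher values at 24 h, as did 9.23% of all genes in that direction. Gsta1 came nearest (1.01, SE 0.25, adjusted p = 0.0542). Without DMSO array 3 of 72 h 6 members passed: Gsta1, Gstt2, Gsto1, Mgst1 and Mgst2 toward higher and Sult1c2 toward lower values, and without DMSO array 3 of 6 h Gsta1 passed. The counts over all genes in these fits are not given here. Between 24 and 72 h 8 of 16 members passed, against 37.9% of all genes. The difference moved down for Gstt2 (-1.03, SE 0.13, adjusted p = 5.86e-05), Gstm2 (-0.73, SE 0.12), Mgst3 (-2.08, SE 0.38), Gstm1 (-0.78, SE 0.18), Gsta4 (-0.74, SE 0.22) and Mgst1 (-1.56, SE 0.54). It moved up for Gstt1 (1.76, SE 0.34, adjusted p = 0.0010) and Gstp1 (0.36, SE 0.11). Gsta1 did not pass (0.22, SE 0.25), being higher with monuron at both times.

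The steps around conjugation were followed in 5 lists. Over all genes tested, 1.10% rose and 2.02% fell in liver, and 3.87% rose and 6.34% fell in kidney. In the cells 3.30% rose and 3.02% fell at 6 h, and 6.43% rose and 7.14% fell at 24 h. At 72 h 30.7% rose and 30.9% fell, so calls at that time are common to most genes and are not results about a list. Of the genes that supply glutathione, UDP-glucuronate and PAPS, 1 of 14 tested fell in liver and none rose: Gclc, the catalytic subunit of the first enzyme of glutathione synthesis, fell by 0.94 (SE 0.14, adjusted p = 0.0195). In kidney 1 of 14 rose, the cysteine-forming enzyme Cth (0.30), a call that held in 2 of 14 alternatives. At 24 h in the cells 2 of 13 rose and 2 fell. Cth rose by 1.76 (SE 0.47). UDP-glucose pyrophosphorylase Ugp2 rose by 0.56 (SE 0.11), whereas the UDP-glucose dehydrogenase Ugdh fell by 0.40 (SE 0.09) and Gclc by 0.55 (SE 0.12). At 72 h 5 rose and 3 fell, when 61.6% of all genes passed. The cystine importer subunit Slc7a11 rose by 3.97 (SE 0.91, adjusted p = 0.0014), Cth by 2.37 (SE 0.47), Gclm, the regulatory partner of Gclc, by 1.56 (SE 0.23), glutathione reductase Gsr by 0.90 (SE 0.24) and Ugp2 by 0.62 (SE 0.11). DMSO array 3 stood apart for Slc7a11, which read 2.78, 2.91 and 8.18 with DMSO, the first 2 below the array median, and 8.44, 8.50 and 8.84 with monuron. Without that array the Slc7a11 difference was 5.75 and that of Cth 3.28, and since the lower end of Slc7a11 lies in the background its size is uncertain. Papss1, which makes PAPS, fell by 0.42 (SE 0.09), the PAPS transporter Slc35b2 by 0.49 (SE 0.12) and glutathione synthetase Gss by 0.31 (SE 0.12). At 6 h none of the 13 passed in either direction.

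Among 11 tested genes of the mercapturate steps and of deconjugation, 1 fell in liver (Acy1, an aminoacylase, -0.38) and 1 rose in kidney (Kyat1, a cysteine conjugate lyase, 0.44). At 72 h in the cells 3 rose and 4 fell, when 61.6% of all genes passed. The beta-glucuronidase Gusb fell by 1.88 (SE 0.17) and the arylsulfatase Arsa by 1.14 (SE 0.14) there, while Acy1 rose by 1.10 (SE 0.11). Chac1, which degrades glutathione, rose by 3.25 (SE 0.64, adjusted p = 0.0097) at 6 h, when Chac2 fell by 0.47 (SE 0.12), by 2.45 (SE 0.64) at 24 h and by 3.15 (SE 0.64) at 72 h, where it read 6.76, 7.24 and 10.74 with DMSO, array 3 again apart. Of the other conjugating enzymes, 1 rose and 1 fell of 11 in liver: the glycine acyltransferase Glyatl2 fell by 1.23 (SE 0.15, adjusted p = 0.0087) and the nicotinamide methyltransferase Nnmt rose by 0.71 (SE 0.11). In kidney 2 of 12 rose, Nnmt (0.74) and Hnmt (1.35), and none fell. In the cells none of 5 passed at 6 h, 1 rose at 24 h, and at 72 h 3 rose and 1 fell, with Nnmt up by 2.57 (SE 0.61; 3.73 without DMSO array 3) and the acetyltransferase Nat1 down by 1.27 (SE 0.22). The kidney calls of Kyat1, Hnmt and Nnmt held in 3, 2 and 7 of 14 alternatives, and those of Acy1 and Nnmt in liver in 5 and 10.

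Of the transporters that export conjugates, none of 5 passed in liver. In kidney the apical pump Abcc2 fell by 2.63 (SE 0.30, adjusted p = 0.0017) and Abcc4 by 0.45 (SE 0.08, adjusted p = 0.0086), both in all 14 alternatives, and Abcc6 rose by 1.20 (SE 0.29, adjusted p = 0.0329), a call that held in 7 of 14. In the cells none of 5 passed at 6 or 24 h, and at 72 h Abcc4 rose by 0.88 (SE 0.32) and Abcc5 fell by 1.16 (SE 0.44), calls that held in 9 and 8 of 14 alternatives. Without DMSO array 3 the Abcc4 difference was 1.48, and over the alternatives the Abcc5 difference ran from -1.52 to -0.17. Of the receptors and factors, 2 of 9 fell in liver and none rose: Nr1i3, which encodes CAR, fell by 1.46 (SE 0.22, adjusted p = 0.0166) and Mafg, a small Maf partner of NRF2, by 0.75 (SE 0.15, adjusted p = 0.0404), calls that held in 9 and 4 of 14 alternatives. In kidney 2 of 8 fell, with Maff down by 1.94 (SE 0.30, adjusted p = 0.0059). In the cells Nfe2l2, which encodes NRF2, rose by 0.34 (SE 0.06, adjusted p = 0.0025) at 24 h. It was the only 1 of 8 that passed then, against 13.6% of all genes. At 72 h Maff (1.32, SE 0.23), Mafg (0.80, SE 0.16) and Cebpa (0.96, SE 0.32) rose, and at 6 h none passed.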

How the data were processed

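The authors deposited 1 log2 value for each probe set on each of 34 arrays. The submitters' processing notes name GCRMA, with no version given in the sources used here. This method subtracts background and scales arrays to a common distribution, so low values crowd near the floor and are compressed. Arrays have no read depth: their number limits the precision. The members and gene lists were chosen with earlier results of these data known.

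Gene names came from the platform annotation, which can be old. Of 31099 probe sets, 57 were controls, 20826 had 1 symbol, 436 several and 9780 none, and no gene was named from a probe set with several. A gene with several probe sets was read from that of highest mean in that fit (4 members had 2). Genes that exceeded their array's median on 3 or more cell arrays, or 4 or more tissue arrays, entered the fit. The test was two-sided, from lmFit and eBayes with a trend (limma 3.58.1, R 4.3.3). Every adjusted p is limma's, adjusted by Benjamini-Hochberg over all genes tested, and 0.05 was the threshold. A single fit held the 6 groups of cell arrays (18 arrays), kidney and liver had a fit each, and both organs shared a fit for the interaction. SE is limma's moderated standard error. Whether the arrays of both groups overlapped was described gene by gene and was not counted over all genes. The procedure was tested on simulated data.

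Named members were up to 12 that passed per comparison up to 6 per interaction and, of each pathway list, up to 3 per comparison, by smallest adjusted p (at 72 h by largest difference for members). Members that missed the threshold, and Cth at 24 h, Slc7a11, Gsr, Papss1, Slc35b2, Gss and Chac1 at 72 h, were named after their values were seen. Alternatives were the filter, the mean of a gene's probe sets, centring, no trend, values limited to the array median, the replicate block, fits without the 72 h arrays and each array left out. Same-numbered monuron and DMSO arrays deviated together at 6 h (correlations 0.197 to 0.491) and at 72 h (0.167 to 0.317), which the data and not the labels give; at 24 h (-0.116 to 0.128), in kidney (-0.216 to 0.018) and in liver (-0.164 to 0.045) they did not.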

Additional observations from a re-analysis of the deposited data

Results flagged for a closer look

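In 16 of 134 groups of 4 tissue arrays, 1 array of a member lay apart from the others by more than Dixon's 95% critical value, set on the gap as a share of the group's whole range, where chance gives about 1 in 20. Of the 16, 5 were liver monuron array 4: it was highest for Gstp3 (0.942 of the range) and lowest for Gstz1 (0.840), Sult1c2 (0.879), Sult2b1 (0.840) and Sult5a1 (0.845). Kidney monuron array 4 was highest for Gstp1 (0.964), the case on which the kidney value of that gene depends. The other monuron cases were Gstm1 in kidney array 3 (lowest, 0.844) and in liver array 3 (highest, 0.931), Sult1c3 in liver array 3 (highest, 0.837) and Ugt2b10 in liver array 2 (lowest, 0.901). Among controls they were Gstm2 in liver array 3 (highest, 0.916), Gstm4 in kidney array 1 (lowest, 0.878), Sult1a1 in kidney array 3 (highest, 0.869), Sult1b1 in liver array 2 (highest, 0.891), Sult2b1 in liver array 4 (lowest, 0.857) and Sult5a1 in liver array 3 (highest, 0.884). Several of these gaps are small in log2 units: the Sult2b1 controls read 5.29 and 5.33, and Sult1c3 with monuron read 14.37 against 14.30 to 14.31.

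The treatment difference differed between liver and kidney, by limma's interaction term, for Ugt2b1 (-0.85), Gsta3 (-1.92), Ugt2b7 (2.96), Gsto1 (-0.45), Ugt2b15 (2.11) and Gstt3 (-0.41). Ugt2b1 lay below the median on all 8 kidney arrays and Ugt2b7 near it in liver, so neither could have fallen there as it did in the other organ. In the cells it differed between 72 and 24 h for Gstt2 (-1.03), Gstm2 (-0.73), Mgst3 (-2.08), Gstt1 (1.76), Gstm1 (-0.78), Gsta4 (-0.74), Gstp1 (0.36) and Mgst1 (-1.56), at a time when 37.9% of all genes did so.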

How the results depend on the processing

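Over the named members, 0 of 392 values with an array left out and 0 of 280 under other alternatives changed direction. This says little, because these members were picked for passing and several alternatives leave the difference itself nearly unchanged. Of the 392 and 280 values, 303 and 242 kept their side of the threshold and 89 and 38 lost it. Counts of members past the threshold moved more. They stand without the count over all genes in the same fit, so they do not tell whether a move was particular to the members. At 6 h the count of 1 became 0 without the filter or with limited values, 2 with the 6 h arrays alone, 4 without the 72 h arrays, and 0 to 2 with an array left out. At 24 h the count of 3 became 7 with the 24 h arrays alone or without the 72 h arrays and 2 to 6 with an array left out. At 72 h the count of 10 became 16 without the filter and 9 to 12 with an array left out. The members added without the filter were Gstm6l, Gstm7, Gsto2, Sult2a1, Ugt2b and Ugt2b15, with differences from 0.06 to 0.205. All of them lay below the array median on every cell array, so these additions are differences within the background. In kidney the count of 8 became 3 without the filter, 5 with the mean of a gene's probe sets, 3 without the trend and 2 to 13 with an array left out. The liver count of 9 ran from 6 to 12 with an array left out. The liver against kidney count of 6 became 3 without the trend and 4 to 8 with an array left out. The 24 against 6 h count of 0 ran from 0 to 6 and the 72 against 24 h count of 8 from 6 to 10. The cause of these moves was not tested, beyond the larger number of genes tested without the filter. With the replicate number as a block, 4 members passed at 6 h, 4 at 24 h, 10 at 72 h, 3 in kidney and 6 in liver, and with like-numbered kidney and liver arrays taken as 1 animal 7 passed between organs (Gstt1 was added, -0.44). Like-numbered kidney and liver arrays correlated at 0.059 to 0.158 with monuron and 0.021 to 0.142 in controls, not all above 0.1, and 8 of 8 and 7 of 8 correlated best with their own number, a hint from the data and not from the labels. Probe sets near the array median give a bound more than a level.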
